A study of Mus musculus with 4 samples.

Results

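Protein kinase C isoforms, the MAP kinase cascade and the protein phosphatases were described in the CA1 field of the mouse hippocampus. The members were chosen by gene symbol alone: Prkc, numbered Mapk symbols, Map2k, Map3k, Map4k, Dusp, Ppp1, Ppp2, Ppp4 to Ppp6, Ptpn and Ptpr. In all, 152 probe sets for 106 genes met that rule, of 8251 genes on the array with a probe set of a single symbol. The samples were total RNA from CA1 of young male C57BL/6J mice that an experimenter had handled and that received no other treatment. The RNA was extracted at 1, 2, 4 or 6 hr, counted from the last shock given to other mice, with 1 array at each time. Those shocked mice were not analysed here, and no source used here says how many animals an array stands for. Every level below is a deposited intensity on a linear scale, and an SD with n = 4 runs over the 4 times and not over replicates.

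Protein kinase C (PKC) isoforms are activated by calcium and diacylglycerol, by diacylglycerol alone, or, for the atypical isoforms, by neither. MAP kinases stand at the end of a relay in which a MAP3K phosphorylates a MAP2K, and the MAP2K phosphorylates the MAP kinase on a threonine and a tyrosine. Dual specificity phosphatases (DUSPs) remove both phosphates, while the PP1 and PP2A holoenzymes act on serine and threonine and the PTP families on tyrosine. In hippocampal neurons these enzymes are known for their part in synaptic plasticity and memory.

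Of the 152 probe sets, 98 (64.5%) had a mean bright enough to be tested, against 7453 of all 12422 probe sets apart from array controls. The 98 covered 85 of the 106 genes. Among the other 54, 18 members (11.8% of 152) were at or under the floor of 54.7 intensity units on each of the 4 arrays, against 11.5% of all probe sets. The floor is the 25th percentile of all values apart from controls, and values below it were set to it before log2 was taken. Of 36 well known members listed for orientation, 30 had a probe set under the rule, and the others were not analysed here. A probe set's intensity depends on its probes as well as on its transcript, so the intensities of different genes are described and not ranked as transcript amounts.

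All 5 CA1 pyramidal markers with a probe set were bright enough to be tested, with a summed intensity of 6884 to 8754. The same filter passed 7453 of all 12422 probe sets, and no markers of other hippocampal fields were listed. The count therefore cannot tell CA1 from those fields. Inhibitory neuron markers summed to 15940 to 19118, with 4 of 5 tested. Of the striatal markers, Drd2 was tested, at 235.8, 164.8, 272.9 and 212.3 at 1, 2, 4 and 6 hr. Rgs9 was at the floor on all arrays. Glial and vascular RNA was present as well, with summed intensities of 19715 to 21391 for astrocyte, 16856 to 23554 for oligodendrocyte, 3493 to 4220 for microglial and 996 to 1486 for endothelial and mural markers. The arrays differed in a few respects that bear on the results. The median intensity was 173 on the 2 hr array and 198 to 204 on the others. The blood markers Hba-a1 and Alas2 summed to 3959, 1987, 2502 and 3181 at 1, 2, 4 and 6 hr. Oligodendrocyte markers summed to 23554, 23283, 21947 and 16856. Of the choroid plexus markers, Ttr read 140.3, 140.3, 3217 and 196 at 1, 2, 4 and 6 hr, and Kl read 54.8, 370, 266 and 247. In tissue RNA of this kind, fewer cells of a type and less RNA per cell cannot be told apart.

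**Figure D1:**
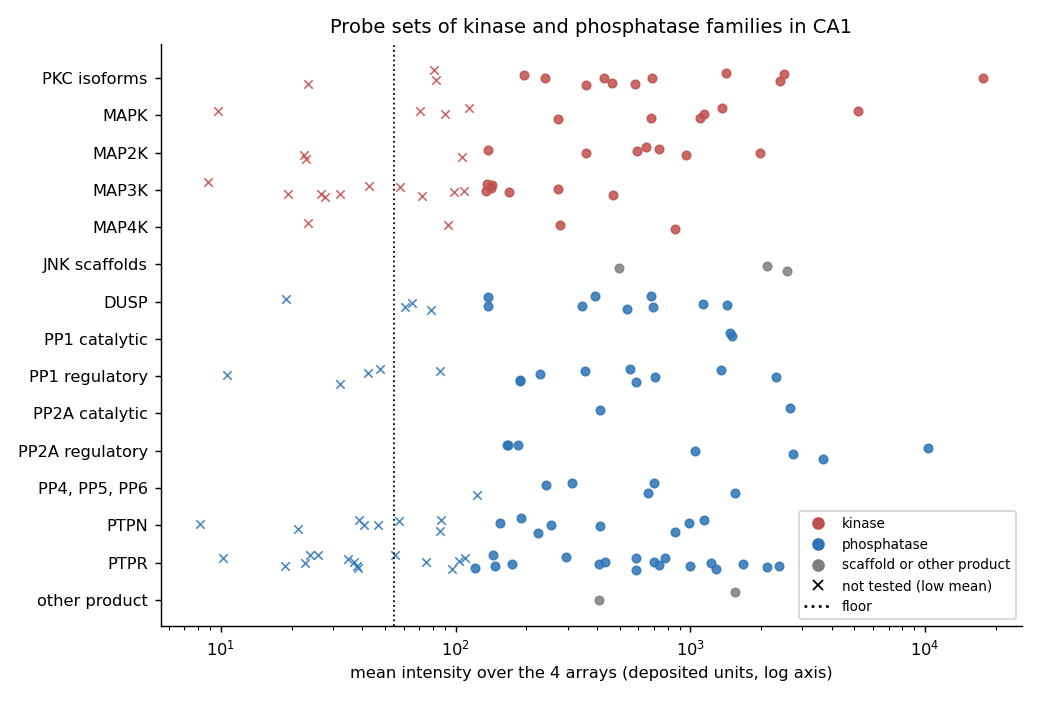
Mean intensity over the 4 arrays (log axis) of each of the 152 probe sets, by family. Kinases are in red, phosphatases with their regulatory and scaffold subunits in blue, and JNK scaffolds or other products in grey. Filled circles are the 98 tested probe sets, crosses those too dim to be tested, and the dotted line is the floor of 54.7; every family has tested members, and the Prkcb probe set at 17687 lies farthest right.

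PKC isoforms had 11 of 14 probe sets tested, for 6 of 8 genes. Prkcb, a calcium-dependent isoform of forebrain neurons, read 17456.5, 17675, 18657 and 16957 at 1, 2, 4 and 6 hr. That probe set was the 42nd brightest of all 7453 tested, and its values lay within 1.10-fold of each other. The second Prkcb probe set read 2479, 2781, 2618 and 2174, also within a narrow band (1.28-fold). Prkce, a calcium-independent isoform, read 649, 685, 668 and 746 through one probe set and 2339.5, 2863, 2124 and 2269 through the other. The first was highest at 6 hr and the second at 2 hr. Prkcd, which needs diacylglycerol but not calcium, read 404, 316, 340.6 and 371.5 through its steadier probe set and was lowest at 2 hr through both.

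Prkca, another calcium-dependent isoform, read 287, 494.5, 430.6 and 509.5 at 1, 2, 4 and 6 hr, lowest on the 1 hr array. Prkcz encodes the atypical zeta isoform and a brain form without its regulatory domain, known as PKM-zeta. Its brightest probe set read 1576, 1604, 1328 and 1186, with both later arrays below both earlier ones. Its dimmest tested probe set read 311.5, 189, 37.3 and 246.5, with the 4 hr value under the floor, at least 5.69-fold from highest to lowest. The third read 448, 364, 697 and 342, so the 4 hr array was the lowest for one Prkcz probe set and the highest for another. Prkcq, the isoform of T cells and muscle, read 365, 180.3, 292 and 126, and Prkch stayed at the floor on all arrays. Prkci, the other atypical isoform, was too dim on average to be tested, reading at the floor at 1 and 2 hr and 123 and 149 at 4 and 6 hr.

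Among the MAP kinases, Mapk10, Mapk8 and Mapk9 encode the JNK kinases. Mapk10, the JNK isoform enriched in neurons, read 5216, 4573, 6332 and 4509 through one probe set and 1239, 1513, 1539.5 and 1137 through the other. Both were highest at 4 hr and lowest at 6 hr, and Mapk10 was the single gene of 11 with several tested probe sets for which the highest array was the same. Mapk8 read 1068, 992, 1330.9 and 1182, while its second probe set was at the floor throughout. Mapk9 was too dim to be tested, at 78.4, 127, 145 and 104. Mapk14, the p38 alpha kinase of stress and cytokine signalling, read 900.4, 1324, 1150.0 and 1028, and Mapk6, an atypical MAP kinase, read 705, 734, 758 and 510.8.

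Mapk12, the p38 gamma kinase best known from muscle, had the widest spread of the MAP kinases. It read 200.7, 94.6, 354 and 439 at 1, 2, 4 and 6 hr, a 4.64-fold range. The 2 hr array stood at least 2-fold below each other array, which 1.88% of all tested probe sets also did on that array. Its SD of 0.99 log2 units was larger than that of 97.0% of the probe sets of like brightness, the 250 nearest on each side in mean level. Mapk13 (p38 delta) and Mapk7 (ERK5) were too dim to be tested. Scaffolds hold JNK together with its activators. Mapk8ip3 read 2672, 2656, 2423 and 2578 (1.10-fold), and Mapk8ip1 read 1874, 2149, 2372 and 2067 through one probe set (1.27-fold) and 452, 583, 422 and 537 through the other (1.38-fold).

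Each of the 6 MAP2K genes had a tested probe set. Map2k1, the MEK1 kinase upstream of ERK, read 1736, 2693, 1390.7 and 2073 at 1, 2, 4 and 6 hr. For a probe set of its brightness that was a wide spread, at the 95.2th percentile. Map2k2, which encodes MEK2, read 662, 487, 728 and 706, lowest on the array where Map2k1 was highest. Map2k4, an activator of JNK, read 1020.1, 1024.5, 803 and 990.2. Map2k5, the activator of ERK5, read 550.7, 570.5, 720.3 and 528. Map2k3 activates p38, and its tested probe sets went separate ways, one highest at 1 hr (1074 against 514 to 722) and the other lowest at 6 hr (205 against 373.5 to 445). Map2k6, the other p38 activator, read 144, 109, 214 and 82.3.

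The MAP3K genes, at the top of the relay, had the smallest share of tested probe sets, 7 of 17 (41.2%). Map3k3 read 412, 385, 584 and 486, and Map3k4 read 272, 225, 284 and 313. Map3k7, which encodes the TAK1 kinase of cytokine signalling, read 123.9, 108.8, 144.3 and 168.1. Map3k5, the oxidative stress kinase ASK1, read 68.6 at 1 hr, at least 2-fold below its 139.9 to 201 at the later times, as did 1.88% of all tested probe sets at 1 hr. Map3k12, a kinase of axonal stress, was at the floor at 1 hr and read 88.1, 183 and 247 at 2, 4 and 6 hr. It was the sole tested member in strictly rising order, where 4% of all tested probe sets were. Of the MAP4Ks, Map4k4 read 661, 875, 1024 and 867. Map4k1, known from blood cells, read 359, 216, 166 and 368.

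Dual specificity phosphatases had 9 of 13 probe sets tested, for 8 of 9 genes. Dusp1 and Dusp6 are known to be induced in active neurons and to act on MAP kinases. Dusp1 read 581, 744, 739.6 and 700.0 at 1, 2, 4 and 6 hr, and with an SD of 0.17 log2 units it was the steadiest of the tested DUSPs. Dusp6, which is specific for ERK, read 1004, 1465, 1112 and 960.7, highest at 2 hr. Dusp2, a nuclear phosphatase also induced early, read 640.1, 515, 687 and 312. Dusp2 was lowest at 6 hr, and its SD was at the 93.2th percentile for its brightness. Dusp8, a brain-enriched phosphatase of JNK and p38, read 1406, 1269.5, 1338 and 1688 through one probe set and 889.9, 641, 467 and 729 through the other. Dusp19 was in strictly falling order, at 446, 429, 374 and 321.5; 3.37% of all tested probe sets were in such order. Dusp9, at 83.5, 64.2, 185 and 214.5, was near the floor, and its second probe set was at the floor on all arrays.

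PP1, a serine and threonine phosphatase, had 2 catalytic subunit genes with a probe set under the rule. Ppp1cb read 1373, 1736, 1427 and 1359, and Ppp1cc read 1189, 1801, 1588 and 1439, both highest at 2 hr. PP1 gains its targets from regulatory subunits, of which 9 of 14 probe sets were tested. Ppp1r21 read 2119.7, 2706, 2329.5 and 2112, and Ppp1r18 read 1436, 1186, 1295 and 1498, so neither moved by more than 1.28-fold. Ppp1r1a, an inhibitor that acts once protein kinase A has phosphorylated it, read 412, 457, 308 and 241, with both later arrays below both earlier ones. Of the 98 tested members 16 had that pattern, against 16.1% of all tested probe sets. Ppp1r2, inhibitor 2, read 275, 150.6, 44.2 and 279, with the 4 hr value under the floor. Its second probe set, too dim to be tested, was also lowest at 4 hr, at 27.8 against 76 to 149.

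Ppp1r15a, known as GADD34, directs PP1 to the translation factor eIF2 alpha after stress. It read 121.5, 112, 355 and 328 at 1, 2, 4 and 6 hr, with both later arrays well above both earlier ones, a 3.16-fold range. Its relative Ppp1r15b, which does the same in the absence of stress, read 590.1, 556.5, 436 and 633. Ppp1r17, an inhibitor of PP1 and PP2A best known from Purkinje cells, was at the floor at 1 hr and read 70.6, 349 and 280.2 later. At 1.36 log2 units it had the largest SD of the members, above that of 99.2% of probe sets of like brightness. The second Ppp1r17 probe set stayed under the floor at 1, 2 and 4 hr and read 96.2 at 6 hr. In all, 20 of the 98 tested members had both later arrays above both earlier ones, and 18% of all tested probe sets did.

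The promoters of Dusp1 and Ppp1r15a are printed because both genes are known for rapid induction and both hold the full cyclic AMP response element, TGACGTCA, which is shown in capitals. The sequences are from RefSeq (build GRCm38.p6), 250 bases before to 50 after the annotated start. Dusp1 lies at chr17:26508423-26508722 and Ppp1r15a at chr7:45526219-45526518, both on the minus strand and printed 5′ to 3′ on that strand.
Dusp1: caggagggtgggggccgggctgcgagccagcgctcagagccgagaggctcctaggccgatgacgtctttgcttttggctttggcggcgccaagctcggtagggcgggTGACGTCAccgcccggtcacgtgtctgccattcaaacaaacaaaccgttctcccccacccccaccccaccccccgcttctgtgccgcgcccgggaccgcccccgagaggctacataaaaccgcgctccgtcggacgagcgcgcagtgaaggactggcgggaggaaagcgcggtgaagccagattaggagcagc
Ppp1r15a: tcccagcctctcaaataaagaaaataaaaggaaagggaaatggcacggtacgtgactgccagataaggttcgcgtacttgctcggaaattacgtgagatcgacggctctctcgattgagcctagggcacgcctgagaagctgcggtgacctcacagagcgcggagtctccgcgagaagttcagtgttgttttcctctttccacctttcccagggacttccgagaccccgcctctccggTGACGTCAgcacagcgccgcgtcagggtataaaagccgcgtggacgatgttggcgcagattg
The element begins 143 bases before the start in Dusp1 and 12 bases before it in Ppp1r15a. It reads the same on both strands, so a single search covers them. Of the 118 promoters found for 86 of the 106 genes, 10 (8.47%) hold it, against 1.79% of all 32851 promoters in the table, which also include genes of other kinds. The others are those of Dusp8, Mapk10, Ppp1r12c, Ppp2ca, Prkcz, Ptpn11, Ptprs and Ptpru. The match is a description of the letters. Over these arrays Dusp1 stayed within 1.28-fold and Ppp1r15a ranged over 3.16-fold.

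PP2A subunits were measured through 1 probe set each for 9 genes, and all 9 were tested. Ppp2r1a, the main scaffold subunit, read 10007.5, 10436, 11187 and 9595 at 1, 2, 4 and 6 hr, within 1.17-fold. Ppp2r1b, its less abundant counterpart, read 246, 196, 144 and 75.4, in strictly falling order over 3.27-fold. The catalytic subunit genes Ppp2ca (419.5, 501, 342 and 383) and Ppp2cb (2409, 3005, 2569 and 2631.5) were both highest at 2 hr. Among the regulatory B subunits, which direct PP2A to its targets, Ppp2r5c read 3306, 4074.5, 3935 and 3357. Ppp2r2b, a neuronal B subunit, read 2297, 3137, 2807 and 2657, while Ppp2r5a read 1156, 1239.6, 937 and 861. Ppp2r5d read 128, 155, 240.7 and 210.3, with both later arrays above both earlier ones. Of the 9 PP2A probe sets, 6 were highest on the 2 hr array, where 24.4% of all tested probe sets were highest. That share was 38.3% among tested probe sets with a mean log2 level of 10 or more. It was 19.7% among those with a level of 8 to 9, where Ppp2ca lies, and 12.9% among those under 8, where Ppp2r2a (135, 202, 189 and 141) lies. Ppp2r1b and Ppp2r5d also lie under 8 and were highest at 1 and 4 hr. Ppp2r1a, with a level above 10, was highest at 4 hr. After a shift of the arrays to a common median, 7 of the 9 were highest at 2 hr, against 45.0% of all tested probe sets. After quantile normalization 5 were, against 26.6%. These recounts were not planned, and the part of the 2 hr array's intensity distribution in the PP2A pattern was not tested.

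The smaller relatives PP4, PP5 and PP6 had 5 of 6 probe sets tested. Ppp4c read 648, 718, 646.5 and 636, with an SD at the 2.60th percentile of probe sets of like brightness. Ppp6c read 678, 750.0, 753 and 621, and Ppp6r3, a regulatory subunit, read 1446, 1443, 1784 and 1549.8. Ppp4r2, a regulatory subunit of PP4, read 289, 283, 273 and 403, highest at 6 hr. The second Ppp6c probe set, too dim to be tested, read 230.5, 116.5, 70.4 and 77.8 and was highest at 1 hr. Ppp5c, which works with the HSP90 chaperone, had the widest spread of the tested probe sets here, at 314, 146, 263 and 243 and lowest at 2 hr.

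Cytosolic tyrosine phosphatases had 8 of 16 probe sets tested, for 8 of 14 genes. Ptpn5 encodes STEP, the striatal-enriched phosphatase that acts on ERK and on glutamate receptors, and it read 880.6, 1248, 853 and 970.8 at 1, 2, 4 and 6 hr. Ptpn9 read 1103.5, 1210.0, 1019 and 1249.5 and was the steadiest of the tested PTPNs. Ptpn1, a phosphatase of the insulin receptor, read 816, 984, 643 and 987. Ptpn13 read 192, 171, 217 and 178, a narrow range for so dim a probe set. Ptpn23 read 312, 577, 490.6 and 268, and Ptpn21 read 119, 75.7, 197 and 226. Ptpn11, the SHP2 phosphatase that carries receptor signals to RAS, was at the floor on all arrays through its single probe set.

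Receptor tyrosine phosphatases, which span the cell membrane, formed the largest family, with 18 of 32 probe sets tested for 15 of 18 genes. Ptpra, an activator of SRC family kinases, read 741, 740.7, 733 and 733. That 1.01-fold range was the narrowest of the members, and 2 of all 7453 tested probe sets had a smaller SD. The dimmer Ptpra probe set, which was not tested, ran from the floor at 2 and 6 hr to 151 at 4 hr. Ptprs, a receptor of synapses and axons, read 2326, 2234, 2535 and 2439. Ptprn, a protein of dense-core vesicles, read 1975, 1885, 2330.9 and 2256, and Ptprr, a neuronal phosphatase of ERK, read 1912, 1611, 1577 and 1629. Ptprd organises synapses, as does Ptprs, and its tested probe sets read 1114, 1175.5, 608 and 1078, and 675, 656, 501 and 977. Both were lowest at 4 hr.

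Ptprz1, the phosphatase of astrocytes and oligodendrocyte precursors, had 3 tested probe sets, each lowest at 4 hr. The brightest read 1482, 1392.5, 1001 and 1265, another read 558, 735, 369 and 686, and the dimmest read 131, 121, 75.7 and 154. Astrocyte markers summed to 19991, 21391, 19715 and 19847, and the precursor marker Pdgfra read 780.5, 1162, 1060.0 and 1026, at 1, 2, 4 and 6 hr. The astrocyte markers did not share an order. Gja1 was lowest at 4 hr, reading 6146, 6431.5, 4848 and 5290, while Gfap was lowest at 2 hr. Aldoc, which gave the largest part of the sum, was lowest at 1 hr, as were Aqp4 and Slc1a2. Slc1a2 rose from 217.7 at 1 hr to 580.3 at 6 hr. The part of these cells in the Ptprz1 values was not tested. Ptprb, the receptor phosphatase of blood vessels, was in strictly falling order, at 170.8, 153, 134 and 118. Endothelial and mural markers summed to 1370, 1486, 1360.3 and 996 at 1, 2, 4 and 6 hr, lowest on the array where Ptprb was lowest. The markers did not all share that order. Cldn5, Pecam1 and Acta2 were lowest at 6 hr, while Cdh5 was under the floor at both 1 and 6 hr. Tek was lowest at 2 hr, at 71.5, and Tagln rose from 53.3 at 1 hr to 283.8 at 6 hr. The part of these cells in the Ptprb values was not tested. Ptprv, a receptor first described in bone, was at the floor at 1 hr and read 116, 306 and 127.5 later; its other 2 probe sets were too dim to be tested and did not follow it. Ptprv stood at least 2-fold below each other array at 1 hr and at least 2-fold above each at 4 hr.

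Members known from white blood cells were grouped after their values were seen. Ptprc, which encodes the leukocyte antigen CD45, had 3 probe sets, all too dim to be tested, with 86.7 at 4 hr as the sole value above the floor. Ptpn6 (SHP1) was above the floor at 1 hr alone, at 102.3, and both Ptpn22 probe sets were too dim to be tested. Ptprcap, which the rule takes in although its product is a partner of CD45 and not a phosphatase, read 503, 237, 459 and 432. The T cell markers Cd3e, Cd3g and Cd8a were at the floor on all arrays, while Cd4 read 334, 238, 511 and 306. Of the B cell markers, Ms4a1 read 284, 249, 421 and 292, and Cd79a read 95.8, 125, 216 and 53.9, both highest at 4 hr. Cd79b, the other B cell marker with a probe set, read 55, 13.4, 20.5 and 94.3, under the floor at 2 and 4 hr. Prkcq and Map4k1, described above and also known from blood cells, were both tested. Likewise Prkcsh met the rule by its symbol, but encodes the beta subunit of glucosidase II; it read 1518, 1376, 1656 and 1665.

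No member's slope over the hours passed the threshold. Each probe set was given a straight line in limma, and p-values were adjusted over all 7453 tested probe sets with the Benjamini-Hochberg method. Of the 98 tested members 0 passed, against 0% of all tested probe sets, and the members' adjusted p began at 0.884. An unadjusted p under 0.05 was found for 8 members, 6 higher and 2 lower with time, where 5.13% of all tested probe sets were past that mark (2.87% higher and 2.25% lower). Ordinary least squares gave 0 members after adjustment, as did limma with an intensity-dependent robust prior. Without the 4 hr array the unadjusted count was 4 of 95 members, against 5.31% of all tested probe sets. Slopes were above 0 for 47 members and below 0 for 51, and their median was -0.0041 per hr on the log2 scale, against 0.0015 over all tested probe sets. No source says that the arrays came from separate animals, so these p-values reflect only how 4 arrays scatter about a fitted line, and that scatter may be technical.

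The 8 are given as values. Those with positive slopes were Map3k12 (0.44 ± 0.07 log2 units per hr, SE), Ppp1r17 (0.54 ± 0.14), Ppp1r15a (0.36 ± 0.10), Dusp9 (0.34 ± 0.10), Ptpn21 (0.27 ± 0.10) and Ptprj (0.22 ± 0.07), with limma adjusted p between 0.884 and 0.963. Those with negative slopes were Ppp2r1b (-0.33 ± 0.06) and Ppp1r1a (-0.18 ± 0.07), with adjusted p of 0.884 and 0.952. Ptprj, a receptor phosphatase of growth factor receptors, read 139, 112, 178 and 266, and its other 2 probe sets were too dim to be tested. Dim probe sets prevailed among the 8: all but Ppp1r1a had a mean log2 level under 8. Tested members that stood at least 2-fold above or below each other array numbered 5 (5.10%), against 7.53% of all tested probe sets: Ptprv, Map3k5, Mapk12, Ppp1r2 and Prkcz. On the 1 hr array 0 stood above (0.47% of all tested) and 2 below (1.88%), and on the 2 hr array 0 above (0.188%) and 1 below (1.88%). On the 4 hr array 1 stood above (0.322%) and 2 below (1.18%), and on the 6 hr array 0 above (0.376%) and 0 below (1.44%). Without the 1 hr array the count of 5 became 10 (8.94% of all tested), and without the 2 hr array 11 (9.88%).

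**Figure D2:**
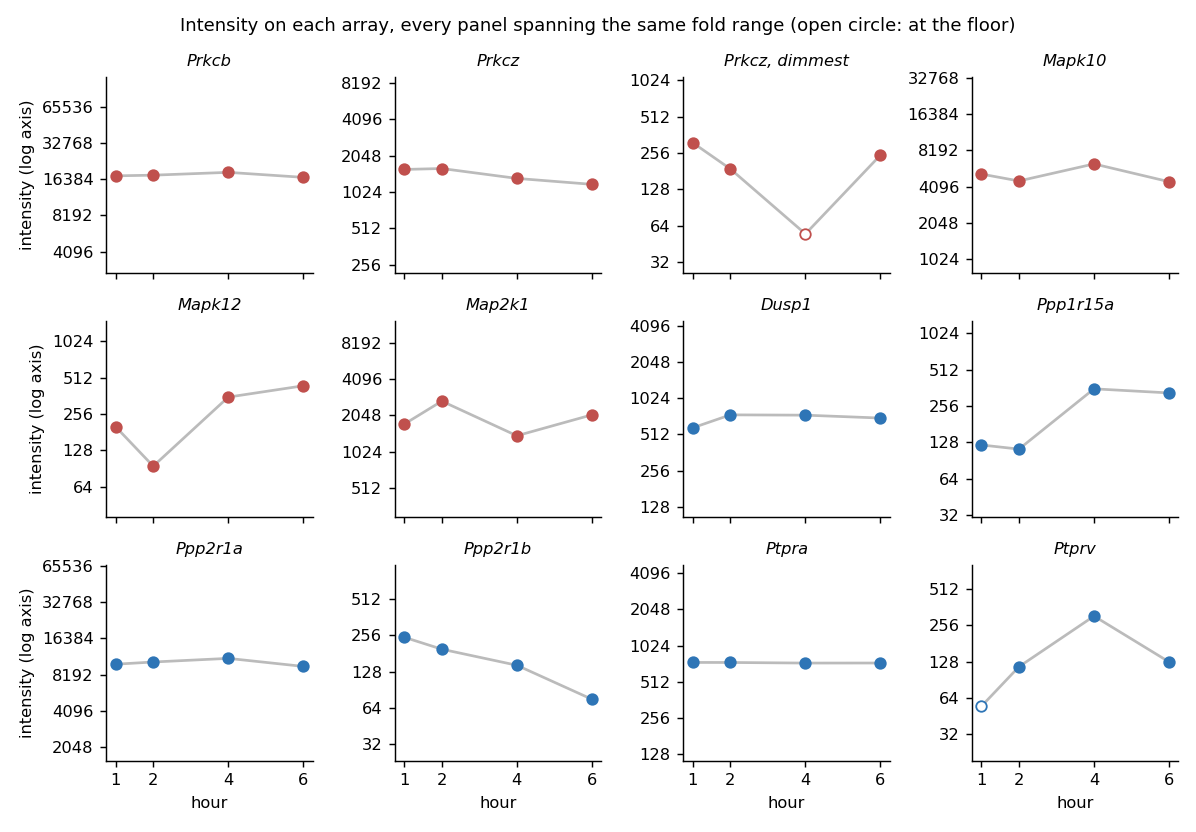
Intensity on each array against the hour for 12 probe sets (kinases red, phosphatases blue), with log2 axes that span the same fold range in each panel, 1 array per point and open circles for values set to the floor. Prkcb, Dusp1, Ppp2r1a and Ptpra stayed within 1.28-fold, while Mapk12 ranged over 4.64-fold and the dimmest Prkcz probe set and Ptprv over at least 5.59-fold.

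How far a member varied went with how bright it was. The median SD of the members was 0.256 log2 units over the 4 arrays, against 0.286 for all tested probe sets, and the members were also brighter, with a median mean log2 level of 9.18 against 8.82. Of 26 members with a mean log2 level under 8, 18 differed by 2-fold or more between their highest and lowest arrays; of 30 with a level of 10 or more, 0 did. Over all tested probe sets the shares were 57.0% and 3.13%. In total 25 members (25.5%) differed by 2-fold or more, against 25.3% of all tested probe sets, and 53 (54.1%) by less than 1.5-fold, against 44.9%. Set among the probe sets of like brightness, 49 of the 98 members' SDs lay below the middle. The members as a whole lay at the middle of the probe sets of their brightness, but not at every level. Under a level of 8 their median SD was 0.65, against 0.50 for all tested probe sets. It was 0.29 against 0.31 from 8 to 9, and 0.26 against 0.24 from 9 to 10. From 10 to 11 it was 0.18 against 0.20, and at 11 or more 0.15 against 0.17.

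**Figure D3:**
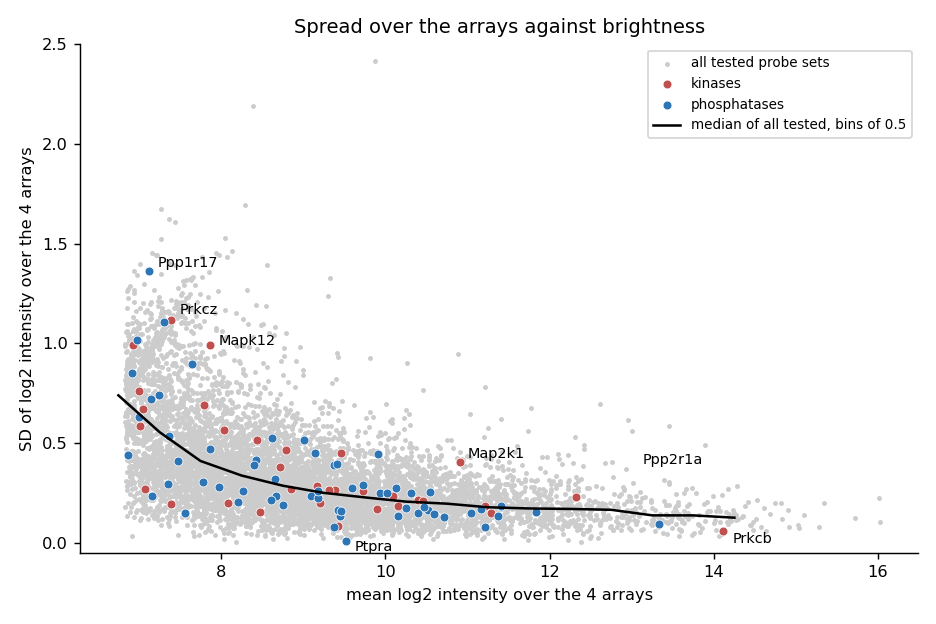
SD of log2 intensity over the 4 arrays against mean log2 intensity, for all 7453 tested probe sets (grey) and the tested kinases (red) and phosphatases (blue), with the median of all tested in bins of 0.5 log2 units as a line. The members' SD falls with brightness as the line does. Under a mean log2 level of 8 their median SD was 0.65, against 0.50 for all tested, and at 11 or more it was 0.15 against 0.17. Ppp1r17 (SD 1.36) lies far above the line and Ptpra (SD 0.01) at the bottom.

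The families differed in where they lay. Kinases had a median percentile of 56.4, with 21 of 33 probe sets above the middle, and phosphatases one of 41.4, with 27 of 60 above it. The phosphatase class also takes in regulatory, scaffold and inhibitor subunits, such as Ppp2r1a at 19.4. The JNK scaffolds, with 3 tested probe sets and a median percentile of 28, were counted in neither class. The classes thus do not set enzymes alone against enzymes. Among the kinases, PKC isoforms (57.0), MAP kinases (56.6) and MAP2Ks (56.4) lay close together, and MAP3Ks had 49.4, which became 26.5 without the 1 hr array and 24.4 without the 4 hr array. Within the PKC isoforms the range was wide, from Prkcb at 5.50 to a Prkcz probe set at 91.8. Among the phosphatases, PP4, PP5 and PP6 had the lowest median percentile (25.8, 5 probe sets), and DUSPs the highest of the families with at least 5 tested probe sets (64.0, 9 probe sets); the DUSP value was 41.5 without the 6 hr array. PP2A regulatory subunits had 39.6, receptor tyrosine phosphatases 39.2, cytosolic ones 46.1 and PP1 regulatory subunits 51.0. The order of kinases above phosphatases held under 11 of 12 other settings. The difference was 4.00 percentile points after quantile normalization, 4.70 without the 1 hr array and 5.10 without the 4 hr array, against 15.0 as reported. It was 0 when no filter on brightness was applied. In that setting probe sets at the floor on all arrays tie with their neighbours and are placed at 50, where both class medians then lay. There 25 of 55 kinase and 43 of 92 phosphatase probe sets were above the middle. With 1 array at each time the difference between the classes was not tested.

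**Figure D4:**
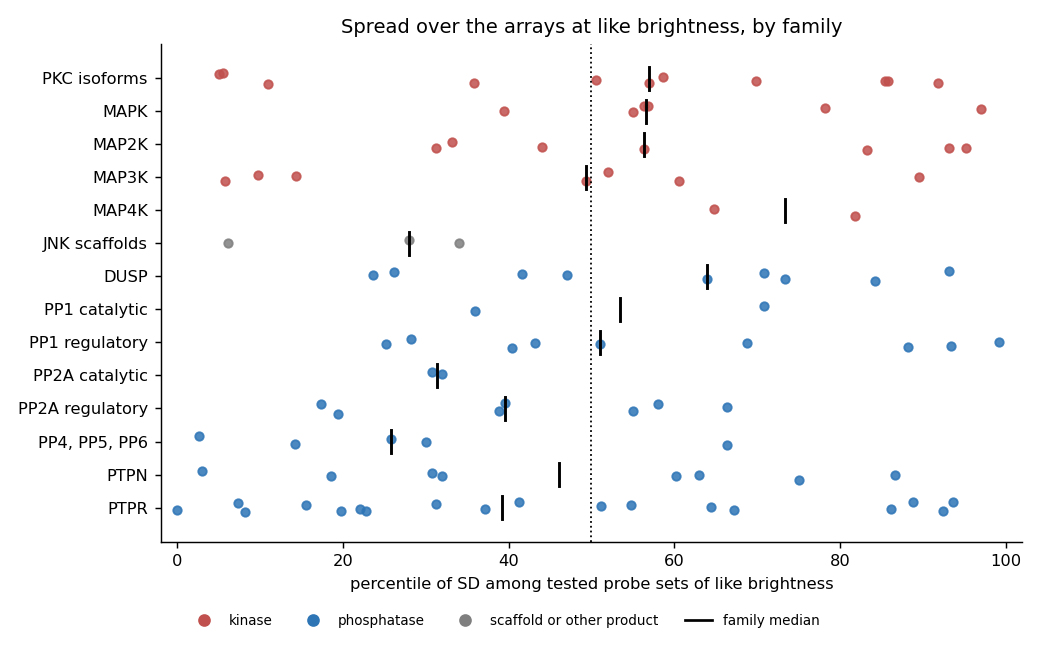
Percentile of each tested member's SD among the tested probe sets of like brightness, by family. Kinases are in red, phosphatases with their regulatory and scaffold subunits in blue, and JNK scaffolds in grey. A black bar marks each family's median and a dotted line marks 50. PP4, PP5 and PP6 have a median of 25.8 against 64.0 for DUSPs.

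The members' extremes were spread over the arrays much as those of all tested probe sets. The 1 hr array was the highest for 20 of the 98 (25.9% of all tested) and the lowest for 16 (24.3%). The 2 hr array was highest for 28 (24.4%) and lowest for 28 (29%). For 4 hr, 26 were highest (26.5%) and 25 lowest (24.3%), and for 6 hr, 24 were highest (23.2%) and 29 lowest (22.4%). Of 33 kinase probe sets 13 were highest at 4 hr, where 26.5% of all tested probe sets were, and of 60 phosphatase probe sets 20 were highest at 2 hr, where the share of all was 24.4%. MAP kinases had 4 of 6 at 4 hr. After a shift of the arrays to a common median, applied to these counts after they were seen, which raised the 2 hr array by 0.17 log2 units, 8 kinases and 2 MAP kinases were highest at 4 hr, where 17.9% of all tested probe sets then were, and 31 phosphatases at 2 hr, where 45.0% of all were. That shift also lowered the 4 hr array by 0.07. After quantile normalization the counts were 13, 4 and 20, with 25.7% of all tested probe sets highest at 4 hr and 26.6% at 2 hr.

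Genes with several probe sets show how far a single probe set can be relied on. Of 36 such members, 6 had no tested probe set, 19 had 1 and 11 had more. For Mapk8, Ptprr and Map2k1 a probe set with a mean of 1143 to 1973 stood beside one with a mean of 9.70 to 22.6. Of the 11 genes with several tested probe sets, slopes had the same sign in 5 and the lowest array was the same in 6. Probe sets with a letter (s, f, g, r or i) before the end of their identifier were tested in 13 of 34 cases, and plain ones in 85 of 118. Letters of all kinds were pooled in that count. The tested probe sets of Dusp9 and Mapk14 are among those with a letter.

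The genes around the members had no calls either. Of 11 tested genes that feed RAS and RAF signals into ERK, 0 passed limma's test in either direction, and the median slope was -0.052 log2 units per hr. Rasgrp1, a diacylglycerol-activated RAS exchange factor, read 124.7, 240.3, 307 and 246.5 at 1, 2, 4 and 6 hr, and Rasa1, a RAS inactivator, read 432, 532, 373 and 325. Of 14 tested effectors and feedback genes of the MAP kinases 0 passed (median slope -0.017); Egr1, a transcription factor induced through ERK, read 1980.4, 2182, 1793 and 1554, and Pea15a, which holds ERK in the cytoplasm, read 1969.9, 1959, 1699.9 and 1565. Of 10 tested activators, anchors and substrates of PKC 0 passed (median slope -0.041), with Plcd1, a phospholipase C, at 240.1, 211, 263.5 and 109 and Marcksl1, a PKC substrate, at 919.7, 1453, 915 and 676. At an unadjusted p under 0.05 there were 0 in each of the 3 lists, with a smallest adjusted p of 1.00. The median spread percentile was 69.2 for the RAS and RAF list, 40.4 for the effectors and 83.2 for the PKC list. With 1 array left out the median slopes ran from -0.086 to -0.025, from -0.054 to -0.025 and from -0.060 to -0.019 in the same order. Nrgn, a neuronal PKC substrate named here after its values were seen, had a percentile of 99.8 and read 4173, 1884, 3348 and 5709.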

How the data were processed

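Total RNA of CA1 was measured on 4 single-channel oligonucleotide arrays, 1 each at 1, 2, 4 and 6 hr. For each of 12488 probe sets the authors deposited an intensity from each array, by a method that no source used here names. These values are linear, with a mean after trimming 2% at each end of 500.3 on each array, so they had been scaled before deposit, a reading from the values. No detection calls were used here, and the number of arrays limits the precision. Pairs of arrays shared 7 to 16 identical values.

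Names came from the platform annotation: 396 probe sets had several symbols and 1237 none, and were not named. All 152 members matched RefSeq (GRCm38.p6) by Entrez identifier. The 66 control probe sets were left out, values were floored at the 25th percentile (54.7), log2 was taken, and the 7453 probe sets with a mean above the 40th percentile were tested with limma 3.58.1 in R 4.3.3 (lmFit, eBayes, 2 residual degrees of freedom), at an adjusted p of 0.05. Folds that involve the floor are lower bounds. On simulated data with 7453 probe sets and 200 changed, limma recovered 87% of the 100 with a slope of 0.8 (log2 per hr) and 13% of the 100 with 0.4. The simulated variances came from the same distribution at every brightness, and no floor was applied. In the data the median SD was 0.50 under a mean log2 level of 8 and 0.17 at 11 or more. The rates were therefore not measured for dim probe sets.

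Members and lists were chosen with earlier results of these data known. Named were members with the smallest p in strict time order, those standing apart on an array, in each family the tested probe sets with the lowest SD, the highest SD and the highest mean, a list of well known members, and the 2 genes of smallest p in each pathway list; any other member or gene named was chosen after its values were seen. A correlation between probe sets of a gene, which had been planned, was not given, since 4 arrays are too few. Sequences are from RefSeq.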

Additional observations from a re-analysis of the deposited data

How the results depend on the processing

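Under 15 alternatives (quantile normalization, a common median, other floors and filters, each array left out, other time scales and variance models, 1 probe set per gene) 0 members and 0 of all tested probe sets passed limma's adjusted threshold, and under 14 of these 0 genes of the pathway lists did. The 10 slopes followed were those of the 8 members past an unadjusted p of 0.05 and of Dusp19 and Ptprb, so they were picked from these same values. Their sign was the same in all 135 refits in which the probe set was tested. Another filter, another variance model or 1 probe set per gene leaves a slope as it was, so those refits could not change a sign. Sizes did change under other settings. With the floor at the 40th percentile the slope was 0.22 for Map3k12, 0.18 for Dusp9, 0.30 for Ppp1r17 and -0.20 for Ppp2r1b, and without the 6 hr array it was 0.56 for Ppp1r15a. The count of members at an unadjusted p under 0.05 was 8 as reported, 1 with the filter at the 60th percentile of mean level (4.61% of all tested probe sets), 5 with the robust prior (4.43%), 5 with log2 of hours (5.77%), and between 4 and 7 with 1 array left out (4.25% to 5.90%). Members standing apart on an array numbered 5 as reported, 0 with the filter at the 60th percentile (1.65%), 1 with the floor at the 40th percentile (3.65%), 1 with a gap of 1.5 log2 units (2.28%), 8 with no filter (9.56%), and between 6 and 11 with 1 array left out (8.94% to 9.88%). The median spread percentile of the members ran from 42.4 to 52.6 over 12 alternatives. Fewer or more probe sets were tested under the other filters; for the other settings the cause was not tested. No paired analysis was possible because each time has 1 array. Dim probe sets limit the precision, as does 1 array at each time.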
